A study of Danio rerio with 6 samples.

Results

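A family of cathepsin L-like genes on zebrafish chromosome 12 stood among the genes with the largest rise in samples depleted of Atoh1b (atoh1b-MO) over controls I and II. In control III its summed level lay within the range of the depleted samples. From this family 4 rows in the deposited count table, chosen by identifier, are described here as the listed rows. They were si:dkey-239j18.2 (ENSDARG00000095254), zgc:174855 (ENSDARG00000094559), zgc:174153 (ENSDARG00000079376) and ctslb (ENSDARG00000074306), 4 of 32266 Ensembl genes in the table. They lie within chr12:16470534-16829977 of the GRCz10 assembly, a region of 359.444 kb that holds exons of 12 rows in all, the other 8 being neighbours outside the list. The listed rows had been picked for their rise in atoh1b-MO samples over controls I and II, so their levels, ranks and calls in that contrast are a description and lend no support.

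Cathepsin L is a cysteine protease of the papain family that usually digests protein in lysosomes. In zebrafish, cathepsin L genes of this cluster are best known from the hatching gland, a transient secretory tissue over the anterior yolk that packs proteases into granules and releases them to soften the egg envelope at hatching. RefSeq lists hgg1, for hatching gland gene, among the older names of ctslb, and it gives ctsl as a synonym of several other genes of the cluster. Of the 12 rows of the region 9 had a symbol, and 7 of these 9 carried a ctsl synonym or a cts symbol in RefSeq.

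RNA came from FAC-sorted, DsRed-positive cells of embryos at late OEPD stages, where OEPD stands for the otic-epibranchial progenitor domain that forms the inner ear and epibranchial ganglia. All 6 samples carried the pax8:DsRed transgene, whose reporter marks the OEPD and the nephric anlagen, and the study kept it heterozygous. The samples comprised 3 controls (I, II and III), labelled wt, and 3 samples from embryos injected with a morpholino, an antisense oligomer, against atoh1b (atoh1b-MO II, IV and V). atoh1b encodes a proneural transcription factor, and the morpholino leaves its gene intact. By their genotype label the injected samples are a dlx3b/4b knockdown, but titles and series text name atoh1b and were followed here. The study set control III aside before testing, so the folds below use controls I and II. For the genes on which the results turn, the log2 fold change of a second fit with all 3 controls is given too. Nothing in the labels says that the samples came from separate clutches, so all errors measure the spread between these samples.

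Total counts ranged from 24120228 to 37169850, so 3 counts, taken as the floor, stood for 0.0807 to 0.124 CPM (the count scaled to a common library total, with TMM factors). The level of atoh1b could not be read, since all 565 rows on unplaced scaffolds, where the study places atoh1b, had 0 counts. Whether the morpholino acted in these samples was not tested. Control III stood apart in markers of the sorted tissue. Its pax8 level was 16.5 CPM, against 295 and 226 CPM in controls I and II and 109 to 201 CPM in atoh1b-MO samples. Markers were matched by symbol, and a marker without a match may still have had a row under another name. Nephric markers (3 of 6 matched) summed to 23.5 CPM in control III and to 310 and 379 CPM in the other controls. For blood markers (5 of 6 matched) the sums were 101 CPM in control III and 2352 and 2989 CPM in controls II and I. Neural markers (2 of 4 matched) summed to 838 CPM in control III, against 69.05 and 97.4 CPM in controls I and II. Their highest sum in atoh1b-MO samples was 349.9 CPM, in atoh1b-MO II.

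The structure of the rows was taken from their exon coordinates, to see which exons were shared between rows and which were private to a single row. Of the 12 rows, 10 shared exon bases with another row on the same strand, and 0 shared any with a row on the opposite strand. The remaining 2 rows, zgc:174153 and si:dkey-26g8.5, shared no exon base at all. Among the 66 possible pairs of rows, 12 pairs shared bases. The rows fell into compact and stretched gene models, with 7 spanning under 4 kb and 5 spanning over 100 kb. Of the listed rows only ctslb was compact.

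**Figure D1:**
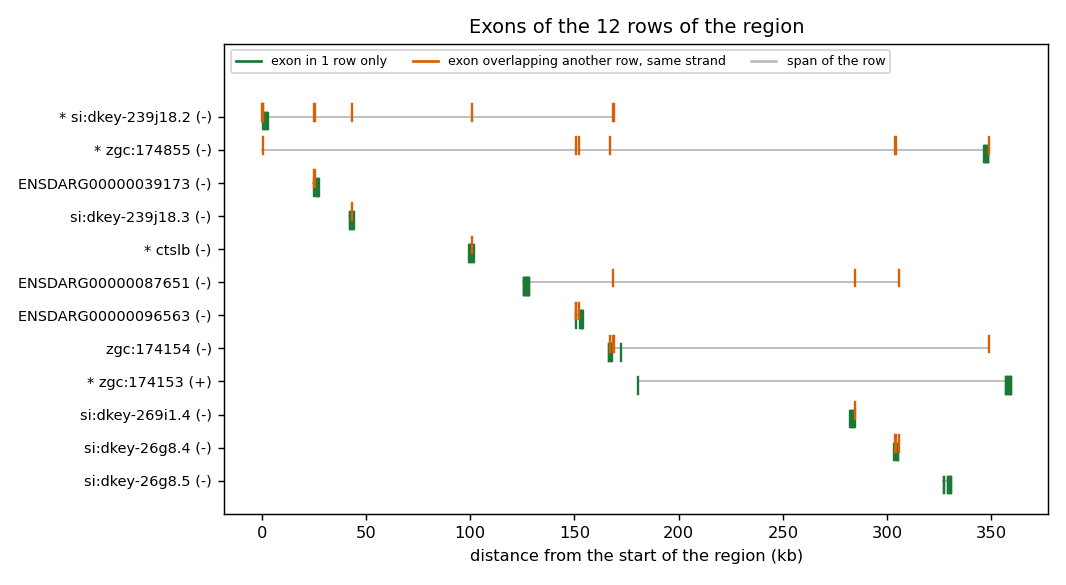
Exons of the 12 rows of the chromosome 12 region, by distance from its start in kb. Each tick is the midpoint of an exon, drawn at a fixed width. Ticks below the line are exons of a single row, ticks above it overlap an exon of another row on the same strand, and asterisks mark the 4 listed rows. Apart from a lone exon of zgc:174153, the private exons of each row sit together in a small block, while the long spans of si:dkey-239j18.2 and zgc:174855 rest on shared exons.

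si:dkey-239j18.2, on the minus strand at chr12:16470534-16639370, spanned 168.837 kb with 2377 exon bases. Of these, 1115 bases (46.9%) were private and 1262 were shared. A block of 8 exons, between positions 16470534 and 16473532, held all 1115 private bases and 340 shared ones. The other 6 exons, 922 bases in all, lay in the places of 5 other rows, and every one of these bases was shared. They overlapped exons of ENSDARG00000039173 by 287 bases, of zgc:174154 by 257, of si:dkey-239j18.3 by 225, of ctslb by 153 and of ENSDARG00000087651 by 123. Some bases of zgc:174154 and ENSDARG00000087651 coincided with each other as well, so these overlaps count them more than once.

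zgc:174855 showed the same arrangement from the other end of the cluster. It lay on the minus strand at chr12:16470701-16819445, with a span of 348.745 kb and 2422 exon bases, of which 1264 (52.2%) were private. All 1264 private bases lay in a block of 8 exons between 16816933 and 16819445, and only 25 bases of that block were shared. Outside the block it listed 6 exons of 1133 bases, all shared. Its last exon in the direction of transcription, chr12:16470701-16471040, was one of those listed for si:dkey-239j18.2 with the same start and end, and these 340 bases were the only ones that any 2 listed rows shared besides those of ctslb. The other overlaps were with si:dkey-26g8.4 (394 bases), ENSDARG00000096563 (284 bases) and zgc:174154 (140 bases).

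ctslb, on the minus strand at chr12:16569710-16572218, had 8 exons of 1289 bases in 2.509 kb. Of its bases 1136 (88.1%) were private, and the rest formed a single internal exon of 153 bases, chr12:16571132-16571284, which si:dkey-239j18.2 also listed with identical ends. zgc:174153 was the exception among the listed rows. It alone lay on the plus strand, at chr12:16650982-16829977, and 100% of its 1262 exon bases were private. Its span of 178.996 kb came from a lone exon of 25 bases at chr12:16650982-16651006, while the other 8 exons lay together at chr12:16827517-16829977. The spans of the other listed rows thus overlapped each other, whereas zgc:174153 overlapped the span of zgc:174855 alone among them, and none of its exons.

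**Figure D2:**
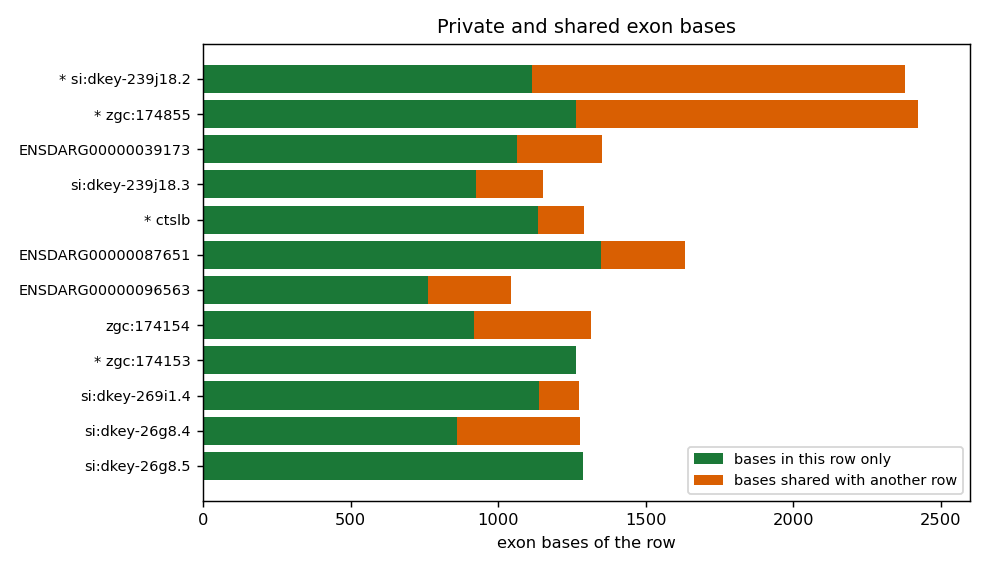
Exon bases of each row of the region, split into bases found in that row alone and bases shared with another row on the same strand (horizontal axis, bases). Asterisks mark the listed rows. The private part of the listed rows ranges from 1115 to 1264 bases, although their totals range from 1262 to 2422.

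Whether shared exons could carry the same reads into several rows was examined over the whole table. In 202 rows every exon base lay on same-strand exons of other rows, and 0 of these rows had a count in any sample. Of 26622 rows with no shared base, 21275 (79.9%) had counts. Of 131 rows covered only by exons of the opposite strand, 44 (33.6%) had counts, 45387 in total. Reads confined to shared same-strand bases were therefore left uncounted, and overlap with the other strand did not bar a row from counts. The counts of the listed rows rested on reads that touched private bases, which for si:dkey-239j18.2, zgc:174855 and ctslb lay within a single block of under 3 kb each. Whether reads that lay on both private and shared bases were counted was not tested. Bases at least 75 bases, the read length, from any shared base were also counted, along the joined exons of each row. They made up 37.6% of si:dkey-239j18.2, 46.1% of zgc:174855, 76.6% of ctslb and 100% of zgc:174153. How many reads of these similar genes were lost because they aligned to several copies was not tested.

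The gene models also resembled each other in the lengths of their exons. Exons of 123, 169 and 225 bases occurred in all 12 rows, and exons of 136 and of 153 bases in 11 of 12. Some of these were the shared exons themselves. All 5 lengths together were found in 15 rows of the table, 10 of them in the region. The 5 outside it were ctslb.4, listed on chromosome 20, ctsla on chromosome 5, and dnah5, hydin and ubr4, long genes with many exons. These lengths were chosen after the exons had been seen.

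The levels of the listed rows were then compared across the samples. si:dkey-239j18.2 had 21, 80 and 1338 counts in controls I, II and III and 1029, 3281 and 1957 counts in atoh1b-MO II, IV and V. These corresponded to 0.756, 2.14 and 47.9 CPM in the controls and to 40.2, 133.4 and 64.96 CPM in atoh1b-MO samples. Controls I and II lay far below all atoh1b-MO samples, and control III lay among the atoh1b-MO samples. The mean was 1.45 ± 0.978 CPM (SD, n = 2) in controls I and II and 79.5 ± 48.3 CPM (SD, n = 3) with the morpholino, a 54.9-fold difference.

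zgc:174855 had 50, 171 and 2164 counts in controls I, II and III (1.80, 4.57 and 77.5 CPM). In atoh1b-MO II, IV and V it had 1986, 5976 and 3307 counts (77.5, 242.9 and 109.8 CPM). Its level in control III was marginally below the lowest atoh1b-MO sample and thus outside their range, whereas the other listed rows in control III lay within it. Means were 3.19 ± 1.96 CPM (SD, n = 2) in controls I and II and 143.4 ± 87.7 CPM (SD, n = 3) with the morpholino, 45.01-fold apart.

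zgc:174153, the listed row with no shared base, had the highest mean count of the region, although ENSDARG00000039173 was above it in control II. zgc:174153 had 101, 274 and 4086 counts in controls I, II and III (3.64, 7.33 and 146.3 CPM). In atoh1b-MO II, IV and V it had 3381, 9532 and 5797 counts (132, 387 and 192 CPM). Again controls I and II were low, and control III lay between atoh1b-MO II and V. The means were 5.48 ± 2.61 CPM (SD, n = 2) in controls I and II and 237 ± 134 CPM (SD, n = 3) with the morpholino, a separation of 43.3-fold.

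ctslb had the lowest mean count of the listed rows. Its counts were 24, 49 and 902 in controls I, II and III (0.864, 1.31 and 32.3 CPM) and 614, 1847 and 1191 in atoh1b-MO II, IV and V (23.97, 75.1 and 39.5 CPM). Controls I and II did not overlap the atoh1b-MO samples, whereas control III fell among them. The mean rose from 1.09 CPM to 46.2 ± 26.2 CPM (SD, n = 3), a 42.5-fold difference.

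**Figure D3:**
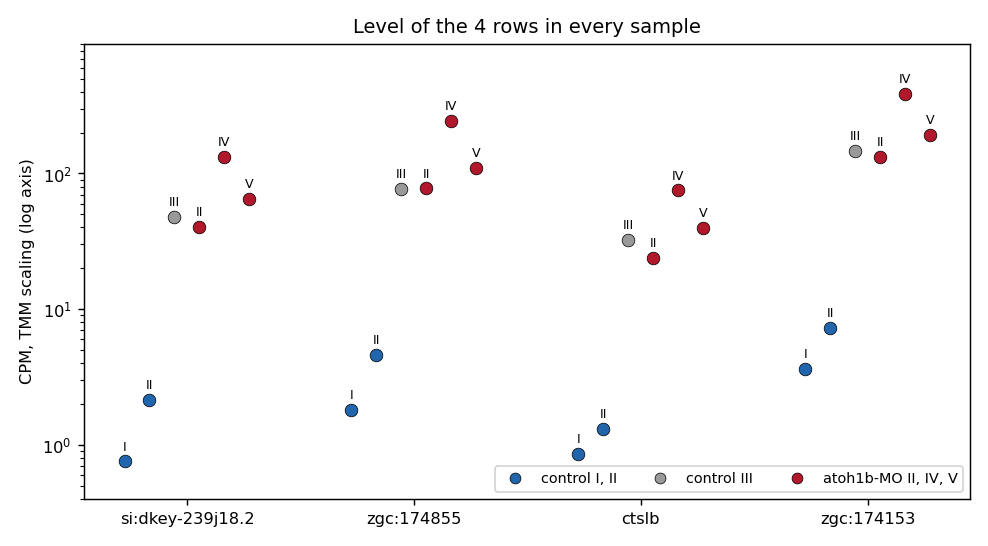
Level of the 4 listed rows in every sample (vertical axis, CPM with TMM scaling, log axis). Each point is a sample and carries its replicate number. Controls I and II lie between 0.756 and 7.33 CPM, and the atoh1b-MO samples between 23.97 and 387 CPM. Control III lies between atoh1b-MO II and V, except for zgc:174855, where it lies marginally below atoh1b-MO II.

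The listed rows ordered the samples alike. All were lowest in control I, then control II, and highest in atoh1b-MO IV, followed by atoh1b-MO V. The level in atoh1b-MO IV was 2.94 to 3.32 times that in atoh1b-MO II, and in control II it was 1.52 to 2.83 times that in control I. The level in control III was 24.3 to 33.1 times the mean of the other controls and 0.540 to 0.699 times the mean of the atoh1b-MO samples. Control III was farther from its own group than from the injected samples.

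In the edgeR fit of 5 samples, the log2 fold changes were 5.72 (SE 0.66) for si:dkey-239j18.2, 5.46 (SE 0.63) for zgc:174855, 5.42 (SE 0.57) for zgc:174153 and 5.38 (SE 0.57) for ctslb. Differences between these 4 values were smaller than any of their SEs. All 4 of 4 were called higher at an adjusted p-value below 0.1, against 0.451% of all 18397 genes tested that were called higher. Since the rows had been picked from this contrast, nothing is read from their count. By fold change they ranked 3, 5, 6 and 7 among the 83 genes called higher, and 29, 31, 33 and 34 among all genes tested. In the fit of all 6 samples the log2 fold changes fell to between 2.01 and 2.36, none of the 4 was called (adjusted p = 0.853 to 0.859, edgeR), and 0% of 17874 genes were called, while 1040 genes had an unadjusted p below 0.05 and DESeq2 called 112. Without control I, which left control II as the only control, none of the 4 was called by edgeR either, with log2 fold changes of 4.97 to 5.21. ctslb was also not called without control II (log2 fold change 5.73).

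The 8 other rows of the region were then summarised together with the listed rows. Of the 12 rows 10 passed the filter on low counts. All 10 were called higher in the fit of 5 samples, against 0.451% of all genes tested. The 10 include the 4 listed rows, picked from this contrast, so their count and median are a description. Their log2 fold changes lay between 3.47 and 5.72, with a median of 5.26. Without the listed rows the range was 3.47 (zgc:174154) to 5.33 (si:dkey-26g8.5). The median over all genes tested was 0.01. Every one of the 10 rows was lowest in control I, then in control II, and highest in atoh1b-MO IV. A separation of all atoh1b-MO samples above controls I and II, with any order inside the groups, was found for 15.1% of all genes tested. The share of genes with the full order given above was not counted. With 6 samples 0 of the 10 were called, with log2 fold changes of 1.58 to 2.65 and adjusted p-values of 0.848 to 0.865 (edgeR). Summed over the region, the level was 14.2, 32.4 and 519 CPM in controls I, II and III and 450, 1368 and 686 CPM in atoh1b-MO II, IV and V. These sums include the listed rows, which alone gave 7.06, 15.3 and 304 CPM in the controls and 274, 839 and 407 CPM in atoh1b-MO samples.

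Rows with and without shared exons were compared next, since shared exons might link their counts. si:dkey-26g8.5, which like zgc:174153 had 100% private bases, stood at 1.91 and 2.01 CPM in controls I and II and at 39.4, 132 and 64.9 CPM in atoh1b-MO II, IV and V. Its log2 fold change of 5.33 (SE 0.57) was close to that of zgc:174153 and to those of the listed rows with shared exons. The smallest change of the tested rows was that of zgc:174154, with a log2 fold change of 3.47 (SE 0.48) and 69.8% private bases. It was at 0.648 and 1.93 CPM in controls I and II, at 9.99 CPM in control III and at 10.6, 19.6 and 13.6 CPM in atoh1b-MO II, IV and V. ENSDARG00000087651 and si:dkey-26g8.4 failed the filter. They had at most 10 and 3 counts in any sample, and 0 counts in controls I and II, although 1348 and 859 of their bases were private. At these counts no change could be detected, and whether unique alignment removed reads from them was not tested.

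Per kb of private bases, the levels of the 10 tested rows in atoh1b-MO samples ranged from 14.7 to 188 CPM per kb, a 12.8-fold range. Among the listed rows zgc:174153 had the highest level on this scale (188 ± 106 CPM per private kb, SD, n = 3), followed by zgc:174855 (113 ± 69.4), si:dkey-239j18.2 (71.3 ± 43.3) and ctslb (40.7 ± 23.1). The SDs hold the spread between samples that the rows share. Within samples the order was the same in 5 of 6, and in control I si:dkey-239j18.2 lay below ctslb (0.678 against 0.761 CPM per private kb). The gaps between neighbours were not tested. Per kb of the deposited gene length, si:dkey-239j18.2 stood at 33.4 CPM per kb and ctslb at 35.8, so the order of these 2 depended on whether uncounted shared bases were included in the length.

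The share of each row in the summed counts of the region was steadier than the counts. zgc:174153 took 25.6% (95% Wilson interval 21.6% to 30.2%) of them in control I and 22.6% (20.3% to 25.03%) in control II, compared with 28.04% to 29.3% in the 3 atoh1b-MO samples and 28.2% in control III. For si:dkey-239j18.2 the share was 5.33% (3.51% to 8.01%) and 6.60% (5.33% to 8.13%) in controls I and II, below the 8.93% to 9.75% in the other 4 samples. The opposite held for zgc:174154, which took 4.57% (2.91% to 7.11%) and 5.94% (4.74% to 7.41%) in controls I and II but 1.43% to 2.35% in the others. Its rise was thus smaller than that of its neighbours, and for each of these comparisons control III sided with the atoh1b-MO samples. This did not hold for si:dkey-239j18.3, at 4.82%, 7.01% and 5.50% in controls I, II and III and 3.58% to 3.82% in atoh1b-MO samples. Controls I and II could also differ from each other. The share of si:dkey-26g8.5 was 13.5% (10.4% to 17.2%) in control I and 6.18% (4.96% to 7.68%) in control II. Intervals cover counting error only, because amplified reads are not independent molecules.

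Genes beyond the ends of the region were examined to see how far the change reached. In the 500 kb on either side lay 29 rows, of which 20 were tested and 0 were called by edgeR, against 0.598% of all genes tested that were called in either direction. An unadjusted p below 0.05 (edgeR) was found for 2 of them, and for 2054 of all 18397 genes. DESeq2, run on 27 flanking rows, called 1, ch25h, encoding cholesterol 25-hydroxylase, with a log2 fold change of -2.42. Over the whole data DESeq2 called 690 of 24986 genes. pank1, a pantothenate kinase gene that begins 1.564 kb after the last exon of zgc:174153, was at 43.5 and 46.1 CPM in controls I and II and at 50.4, 47.3 and 54.4 CPM in atoh1b-MO II, IV and V. On the other side kif20bb, a kinesin gene 40.1 kb before the region, was at 154 and 144 CPM in controls I and II and at 147, 144 and 151 CPM in atoh1b-MO samples. Their log2 fold changes were 0.18 (SE 0.10) and -0.01 (SE 0.08). The 6 flanking genes with a mean level above 10 CPM all lay between -0.15 and 0.26. In the fit of 5 samples the step at the end of zgc:174153 was thus more than 5 on the log2 scale within 1.564 kb. It describes a row picked from this contrast. With all 6 samples the log2 fold change of zgc:174153 was 2.18 (adjusted p = 0.858, edgeR), and control III was at 146.3 CPM.

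**Figure D4:**
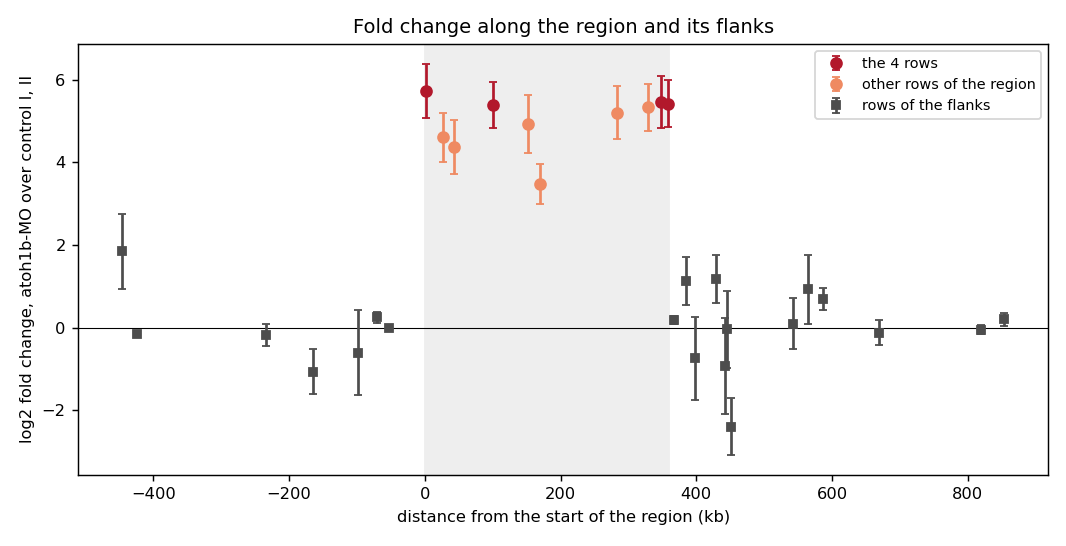
Log2 fold change of atoh1b-MO samples over controls I and II (5 samples, edgeR) by distance from the start of the region in kb. Circles are rows of the region at the middle of their main exon block, squares are tested rows of the flanks, bars are SEs and the region is shaded. The 10 circles lie between 3.47 and 5.72, and the squares between -2.39 and 1.85.

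Other cathepsin genes were surveyed by symbol alone, as rows whose symbol starts with cts. Cathepsin genes under other names, like most rows of the region, were not covered. Outside the region 18 rows matched, 14 were tested, 2 were called higher and 0 lower (0.451% and 0.147% of all genes tested), with a median log2 fold change of 0.0136, against 0.00678 over all genes tested. The largest rise was that of ctslb.4, a further cathepsin L gene. It was at 1.26, 1.74 and 50.6 CPM in controls I, II and III and at 35.7, 124 and 56.3 CPM in atoh1b-MO II, IV and V. Its log2 fold change was 5.57 (SE 0.61, adjusted p = 0.0169, edgeR), within the range of the rows of the region. The deposited table places ctslb.4 on chromosome 20, at chr20:12559246-12563583 of GRCz10, whereas RefSeq on the GRCz12tu assembly places it on chromosome 12 before the cluster, with a single noncoding gene between it and si:dkey-239j18.2. The other called gene was ctsll (log2 fold change 2.92, SE 0.49, adjusted p = 0.0729, edgeR), which was named after its value was seen. It rose from 0.756 and 0.348 CPM in controls I and II to between 2.85 and 5.11 CPM in atoh1b-MO samples and was at 1.32 CPM in control III. With all 6 samples the log2 fold changes were 2.01 for ctslb.4 and 2.36 for ctsll, and neither was called (adjusted p = 0.860 and 0.731, edgeR).

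The remaining 12 cathepsin genes tested had log2 fold changes between -0.98 and 1.55 and were not called. Among them ctsla, the cathepsin L gene on chromosome 5 with the same exon lengths, was at 314 and 306 CPM in controls I and II, at 269 CPM in control III and at 288, 306 and 297 CPM in atoh1b-MO II, IV and V. Its log2 fold change was -0.06 (SE 0.07). ctsb and ctsd, which encode the lysosomal cathepsins B and D, had log2 fold changes of -0.06 and -0.07. The genes of common lysosomal cathepsins thus showed no call, and the 2 calls belonged to genes whose symbols place them near cathepsin L.

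Genes whose levels followed the listed rows most closely were sought over all 6 samples, by Pearson's r between their log2 CPM and the mean log2 CPM of the listed rows. This is a description over 6 samples, which differed in their tissue markers as described above. Among 17864 genes outside the region the 5 highest were rabggtb (r = 0.997), ctslb.4 (r = 0.997), rbp4l (r = 0.996), ufsp2 (r = 0.995) and aldh4a1 (r = 0.995). Their amplitudes differed widely. rabggtb, encoding a subunit of a Rab geranylgeranyl transferase, ranged over only 0.55 on the log2 scale, from 29.2 to 42.8 CPM, and ufsp2 and aldh4a1 over 1.17 and 0.45. ctslb.4 ranged over 6.54, close to the 6.33 to 7.34 of the listed rows. rbp4l, named for retinol binding, was near 0 in controls I and II (0 and 0.0267 CPM) and between 1.21 and 4.76 CPM in atoh1b-MO samples. In total 14 genes outside the region exceeded an r of 0.99. Ranking with a prior count of 10 kept 4 of the 5, without rbp4l.

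Some markers of the hatching gland were higher in the same samples as the listed rows. The list held 9 genes, all found in the data, with ctslb as the only row of the region. Of the other 8 genes 4 were called higher and 0 lower in the fit of 5 samples, against 0.451% and 0.147% of all genes tested. The list was chosen with earlier results of these data known, so counts over it are a description and lend no support. The hatching enzyme genes he1.1 and he1.2, whose products dissolve the egg envelope, were at 2.70 and 5.96 CPM and at 1.55 and 3.85 CPM in controls I and II. In atoh1b-MO II, IV and V he1.1 was at 53.7, 106 and 59.6 CPM and he1.2 at 39.1, 72.6 and 42.2 CPM. Control III had 73.1 CPM of he1.1 and 50.4 CPM of he1.2, again between the lowest and highest injected sample. Their log2 fold changes were 4.06 (SE 0.43) and 4.22 (SE 0.44), both with an adjusted p of 0.016 (edgeR). With all 6 samples they were 1.43 for he1.1 and 1.47 for he1.2, and neither was called (adjusted p = 0.868, edgeR). The spans of these genes overlap on chromosome 22, and their counts may not be fully separate.

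Of the transcription factor genes in the list, bhlha15 and foxa3 rose. The former, bhlha15, which drives secretory cell architecture, was at 0.720 and 0.588 CPM in controls I and II and between 4.25 and 13.1 CPM in atoh1b-MO samples (log2 fold change 3.59, SE 0.56, adjusted p = 0.0544, edgeR). It lies between 500 and 1000 kb from the region, on the same chromosome. foxa3, a forkhead factor of the early hatching gland and endoderm, rose from 4.72 and 5.48 CPM to between 11.2 and 19.8 CPM (log2 fold change 1.68, SE 0.28, adjusted p = 0.0696, edgeR). With all 6 samples the log2 fold changes of bhlha15 and foxa3 were 2.61 and 0.96, and neither was called (adjusted p = 0.741 and 0.848, edgeR). In the fit of 5 samples the genes not called were agr2, cd63 and xbp1, with log2 fold changes of 1.05, 0.83 and 0.72. klf17, a transcription factor required for hatching gland formation, was at 357, 323 and 41.5 CPM in controls I, II and III. In atoh1b-MO II, IV and V it was at 240, 347 and 449.5 CPM, with a log2 fold change of 0.03. A similar course was seen for gata1a of the blood list. It was at 338, 297 and 8.81 CPM in controls I, II and III and at 231, 323 and 423 CPM in atoh1b-MO II, IV and V. The other matched blood markers differed from gata1a in the fit of 5 samples. Their log2 fold changes were -0.69 (tal1), -0.75 (lmo2), 0.55 (hbbe3) and 0.55 (hbae3), and all were lower in control III than in controls I and II. Which cells gave the reads of klf17 was not tested. The median of the hatching gland list was 1.37. The groups of 5 samples did not overlap for 6 of its 8 genes, against 15.1% of all genes with all atoh1b-MO samples above controls I and II. Summed over these 8 genes, the level was 507 and 515 CPM in controls I and II, 460 CPM in control III and 602 to 874 CPM in atoh1b-MO samples. klf17 gave the largest part of the sum in controls I and II and a small part in control III. In control III agr2 lay between the other controls, while he1.1, he1.2, cd63, foxa3, xbp1 and bhlha15 were higher than in both. No marker of the list was at 0 in any sample.

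**Figure D5:**
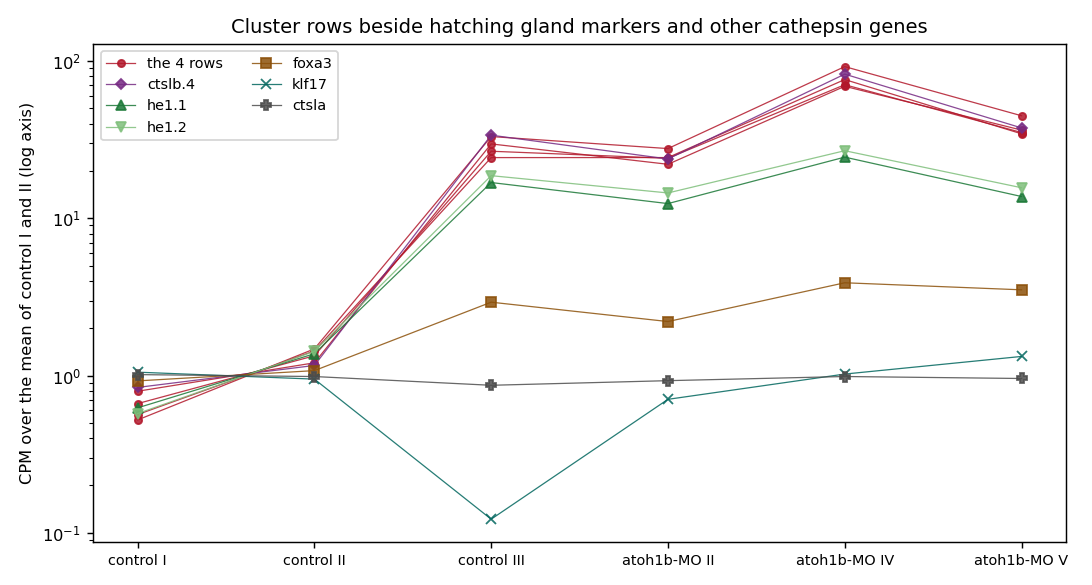
Level of the listed rows, of ctslb.4 and ctsla and of 4 hatching gland markers in each sample, as CPM over the mean of controls I and II (log axis). Lines join points of the same gene and imply no order of the samples. The listed rows and ctslb.4 lie highest in atoh1b-MO II, IV and V and in control III, he1.1 and he1.2 follow with smaller rises, and ctsla stays near 1.

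Cells of the hatching gland are not named among the sorted cells in the labels. In bulk samples of this kind, more cells of a type and more RNA per cell cannot be told apart, and the part of hatching gland cells in the rise of the listed rows was not tested. Markers of the other tissues were those of OEPD, nephric anlagen, blood, muscle, notochord, neural crest, epidermis, endoderm and neural tissue. Of those matched by symbol, 0 of 28 tested genes were called in either direction by edgeR, against 0.598% of all genes tested. An unadjusted p below 0.05 was found for 8 of the 28, and for 2054 of all 18397 genes. DESeq2 called 1 of them, tal1 of the blood list, lower with a log2 fold change of -0.70. In control III, where the listed rows were also high, summed blood, nephric and OEPD markers were lower than in controls I and II. Those of muscle, neural, epidermal and endoderm markers were higher. The endoderm sum came from foxa2 (21.0 CPM in control III), while sox17 was lower there than in controls I and II. Only 4 of 8 OEPD markers were matched by symbol. Among these the lower sum came from pax8 and eya1, while dlx4b and foxi1 in control III lay between the other controls. Their part in the level of the listed rows was not tested.

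The name ctslb is itself uncertain for the row that carries it here. In RefSeq on GRCz12tu ctslb lies directly before si:dkey-239j18.3, a place that in the deposited table is held by ENSDARG00000039173, a row without a symbol. The assemblies differ, and the copies of this cluster may have been arranged or named differently in them. ENSDARG00000039173 had a log2 fold change of 4.60 (SE 0.59) with 5 samples and of 2.17 with all 6 (adjusted p = 0.848, edgeR). It was at 3.06, 8.32 and 82.3 CPM in controls I, II and III and at 76.8, 225 and 120 CPM in atoh1b-MO II, IV and V. Both candidate rows were thus higher in atoh1b-MO samples than in controls I and II, while control III lay among the atoh1b-MO samples for both.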

How the data were processed

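The authors deposited raw counts of reads per Ensembl gene with the exon coordinates and gene length of each row, made with featureCounts (version 1.5.3 per the submitters' processing notes). These notes name GRCz10. The study's methods name GRCz11 and a later featureCounts, as well as another library protocol than the labels, which give stranded poly(A) libraries and single reads of 75 bases. The last exons in the table (49212351 on chromosome 12, 55339525 on chromosome 20) fit GRCz10, which is used here. Aligned reads were unique matches by the study's account. The 92 spike-in rows had 0 counts. Symbols came from an Ensembl gene table, which matched 26433 of 32266 identifiers, and are written in zebrafish lower case. Gene order came from RefSeq (GRCz12tu).

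Exons of a row were merged, and each base was called private or shared with exons of other rows. Exons within 10 kb of each other formed a block. Counts were fitted with edgeR 4.0.16 (R 4.3.3) using TMM, filterByExpr and quasi-likelihood F-tests. P-values were adjusted after Benjamini and Hochberg over all genes tested and called below 0.1, the study's rate of 10%. The first fit held controls I and II and 3 atoh1b-MO samples, the second all 6. Likeness used log2 CPM with a prior count of 2. The study's clutch factor was not used, since the labels give no clutch. Alternatives were DESeq2 (1.42.0) and its size factors, no filter, at least 10 counts in every sample, a threshold of 0.05, leaving out each replicate, flanks of 250 and 1000 kb and other measures of likeness. Scripts were tested on simulated data. Named were the listed rows, the rows of the region, the 5 most alike genes, called flanking genes and up to 5 called cathepsin genes with a mean count above 100. The members and lists were chosen with earlier results of these data known, and the exon lengths compared were picked from the exons themselves. No sequences are printed, since none were in the tables used here.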

Additional observations from a re-analysis of the deposited data

Results flagged for a closer look

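Control III took no part in the first comparison, and all 4 listed rows had a signal in it above that of the other controls. si:dkey-239j18.2 was at 47.9 CPM in control III, against at most 2.14 CPM in controls I and II. zgc:174855 was at 77.5 CPM against at most 4.57 CPM. zgc:174153 was at 146.3 CPM against at most 7.33 CPM, and ctslb at 32.3 CPM against at most 1.31 CPM. The cause was not tested.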

How the results depend on the processing

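With 5 samples, edgeR called 110 genes, 690 with DESeq2, 488 with no filter, 71 at a threshold of 0.05, and between 13 and 260 when a replicate was left out. The lowest number came without control I, the highest without atoh1b-MO II, and 36, 46 and 67 came without atoh1b-MO IV, control II and atoh1b-MO V. With 6 samples the number was 0, 112 with DESeq2, and between 0 and 110 when a replicate was left out, with 110 without control III. In the flanks it was 0, and 1 with DESeq2, with no filter (ch25h in both) and with flanks of 1000 kb (bhlha15). The cause of these shifts was not tested, except that the stricter threshold calls fewer genes by construction.

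The fold changes of the listed rows stayed above 4.8 on the log2 scale under all alternatives of the 5 samples, and fell to 2.23, 2.36, 2.18 and 2.01 with all 6. Of 40 alternative values for them 31 kept their call and 9 lost it (all 4 without control I, ctslb without control II, and all 4 with 6 samples). The summed level of the region was 35.8-fold higher with TMM and 36.8-fold by library size alone. Counting only bases at least 75 bases from a shared base lowered the private share to 37.6%, 46.1% and 76.6% for si:dkey-239j18.2, zgc:174855 and ctslb. Of the 5 most alike genes 2 had a Spearman rho of 1. No paired analysis was possible because the groups share a single replicate number, II. Counts of 21 to 101 in control I limit the precision of every fold.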
